A study of Canis lupus familiaris with 81 samples.

Results

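The data described here belong to 7 probes of the GeoMx Canine Cancer Atlas, each of which was higher in every region of 1 canine osteosarcoma than in any region of the other tumours. They were chosen from these same counts by a rule with a pair of conditions. The level of a probe in its highest tumour had to lie at least 2 log2 units, a 4-fold difference, above its level in every other tumour, and every region of that tumour had to lie above every region of the others. The probes are RTS0112954, RTS0112223, RTS0113799, RTS0111919, RTS0112877, RTS0112807 and RTS0112647, which make 7 of 2010 probes measured. The deposited counts do not pair probe identifiers with gene names, so no gene, function or sequence is given for any of them.

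The study assayed limb bone tumours (appendicular osteosarcoma) of pet dogs enrolled in a trial of the Comparative Oncology Trials Consortium. Pieces of tissue lay on 2 tissue microarrays, called array 1 and array 2 here, and were profiled with the GeoMx Digital Spatial Profiler. Of 81 libraries, 68 were osteosarcoma regions carrying 24 tumour numbers, 12 were control regions with 4 each from kidney, spleen and liver, and 1 was a no-template control that was not used. The study also divided dogs by disease-free interval, but the labels do not say which tumour belonged to which group, so that division was not compared here. Both arrays held 2 regions of 10 of the tumours and 1 region of the other 14. Each tumour number was taken as 1 tumour. The labels name the trial but no agent, dose, breed, age or sex, do not say how regions were picked, and do not name the animals behind the control tissues. No list of cell type markers could be checked without gene names.

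Osteosarcoma is a cancer of bone-forming cells that lays down bone matrix, and it is known for genomes with many rearrangements and for large differences between patients. In a GeoMx assay, probes carrying a DNA tag bind RNA in a tissue section, light releases the tags from a chosen region, and the tags are counted by sequencing. A count therefore belongs to a whole region with all its cells. Fewer cells that carry an RNA and less of that RNA per cell cannot be told apart in such a measurement.

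Levels are log2 CPM (counts scaled to the same total for every region) with TMM scaling and a prior count of 2, averaged over the regions of an array and then over both arrays. Because probes differ in how well they bind, the level of 1 probe is not compared with that of another. Total counts ranged from 17711 to 1069118 in the tumour regions and from 92126 to 396058 in the control regions. The 10 most counted probes held 20.4% to 35.1% of the counts in the regions of tumours 309, 601, 1001, 1405 and 1801. They held 56.7% to 81.7% in the 4 regions of tumour 404, whose TMM factors ran from 0.252 to 0.523, against 1.01 to 1.33 in those 5 tumours. In the 52 regions of the other tumours the share was 17.4% to 75.45%, with a median of 46.3%. Their TMM factors ran from 0.352 to 1.80, with a median of 0.891, so concentrated counts and low factors were not confined to tumour 404.

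RTS0113799 was high in tumour 1001. Its counts there were 1879 and 507 on array 1 and 3395 and 609 on array 2, at total counts between 69005 and 500268. The corresponding levels were 12.64, 12.64, 12.68 and 12.70, with an SD of 0.028 over the 4 regions. In the other 23 tumours the level ran from 8.34 in tumour 204 through a median of 8.94 to 9.97 in tumour 404. Tumour 1001 thus stood 2.70 log2 units, or 6.48-fold, above the next tumour and 13.2-fold above the median of the others. Its lowest region was 2.34 log2 units above the highest region of any other tumour, which belonged to tumour 2206. The level was 9.53 to 9.90 in the kidney regions, 8.74 to 9.16 in spleen and 7.61 to 8.35 in liver, so tumour 1001 lay above every control region too. Which tumour came next depended on the setting: it was tumour 2204 with library size alone, 502 with thinned counts, and 2206 without its region of 17711 counts.

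RTS0111919 and RTS0112807 were both high in tumour 309, which had 1 region on each array. For RTS0111919 the counts were 1572 and 1363 and the levels 13.61 and 13.73. The other tumours ran from 9.15 in tumour 901 through a median of 9.97 to 11.23 in tumour 1701, so that the gap was 2.44 log2 units and the fold over the next tumour 5.41. Its lowest count in another tumour region was 14 and its highest 1113. For RTS0112807 the counts in tumour 309 were 237 and 216 and the levels 10.88 and 11.07. The other tumours ran from 6.65 in tumour 2206 through 7.51 to 8.21 in tumour 1405, a gap of 2.77 log2 units, or 6.82-fold. The low end for RTS0112807 rested on 1 region of tumour 2206 with a count of 0 at 17711 counts in all, which allows up to 203 CPM. Without that region tumour 2206 was at 7.91, the 4th highest of the 24, and the lowest was tumour 204 at 6.70. Both regions of tumour 309 lay above all other tumour regions, by 1.65 log2 units for RTS0111919 and by 2.38 for RTS0112807. As a description, the levels of the pair had Pearson r = -0.022 over the 23 tumours outside 309, and 0.65 with it.

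RTS0112954 was high in tumour 601, with counts of 115 and 124 and levels of 10.03 and 10.49. Among the other tumours it ran from 5.20 in tumour 2206 through a median of 6.10 to 7.82 in tumour 701. The gap was 2.43 log2 units, or 5.40-fold, and tumour 601 was 17.9-fold above the median of the others. Counts elsewhere were small, with a median of 11 per region and a highest of 105, in a region of tumour 701 that was sequenced to 347912 counts against 83435 and 70414 in tumour 601. The probe was not listed, and taken as a count of 0, in 1 region each of tumours 404 and 2206, both on array 2. Allowing for 3 counts, those regions could have held up to 152 and 203 CPM, against 1036 and 1426 in tumour 601. Without the region of tumour 2206 that tumour was at 5.75, and tumour 404 was the lowest at 5.21.

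RTS0112223 was high in tumour 404. The counts were 734 and 311 on array 1 and 309 and 28 on array 2, and the levels were 11.13, 11.45, 11.03 and 10.47, with an SD of 0.41. The count of 28 came from a region with 73935 counts, and its exact 95% Poisson interval, which covers counting error only, runs from 18.6 to 40.5. The other tumours ran from 6.55 in tumour 601 through 7.25 to 8.47 in tumour 1403, a gap of 2.55 log2 units, or 5.86-fold. Tumour 1403 had 1 region per array, and they differed: its levels were 7.64 from a count of 11 and 9.30 from a count of 36. This gap changed with the setting, and was 1.87 with thinned counts and 1.45 on array 2 alone. With library size alone the level of tumour 404 was 9.54, that of tumour 1403 was 9.11, and the gap was 0.43. Of the 7 probes only RTS0112223 fell under a gap of 2 with library size alone.

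RTS0112877 was high in tumour 1801, with counts of 540 and 449 and levels of 10.20 and 10.11. The next tumours were 1701, at 8.04 with an SD of 0.83 over its 4 regions, and 2201, at 7.67 with an SD of 1.01. The other tumours had a median of 6.46 and a lowest level of 5.70, in tumour 2204. Tumour 1801 stood 2.11 log2 units, or 4.32-fold, above the next. Within tumour 1701 the regions fell into a lower pair, at 7.15 and 7.56, and a higher pair, at 8.88 and 8.60, with 1 region of each pair on each array. The higher pair still lay at least 1.23 log2 units under both regions of tumour 1801.

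RTS0112647 was high in tumour 1405, with counts of 207 and 512 and levels of 9.50 and 9.53. The other tumours ran from 5.63 in tumour 2206 through 6.40 to 7.48 in tumour 901, a gap of 2.04 log2 units, or 4.11-fold, the nearest of the 7 to the limit of 2. The low end again came from the region of tumour 2206 with 17711 counts, where this probe had a count of 0. Without it tumour 2206 was at 6.52, the 11th of 24, and tumour 404 was the lowest at 5.80. No other tumour region reached a count above 55. Liver was the control tissue that came closest to its tumour, at 8.38, 8.65, 7.94 and 8.51 in its 4 regions. Those regions lay above all of the other 23 tumours in mean level and 0.85 log2 units or more under tumour 1405. Kidney ran from 6.85 to 7.30 and spleen from 6.75 to 7.27, each with 1 of the other tumours above all of its regions.

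**Figure D1:**
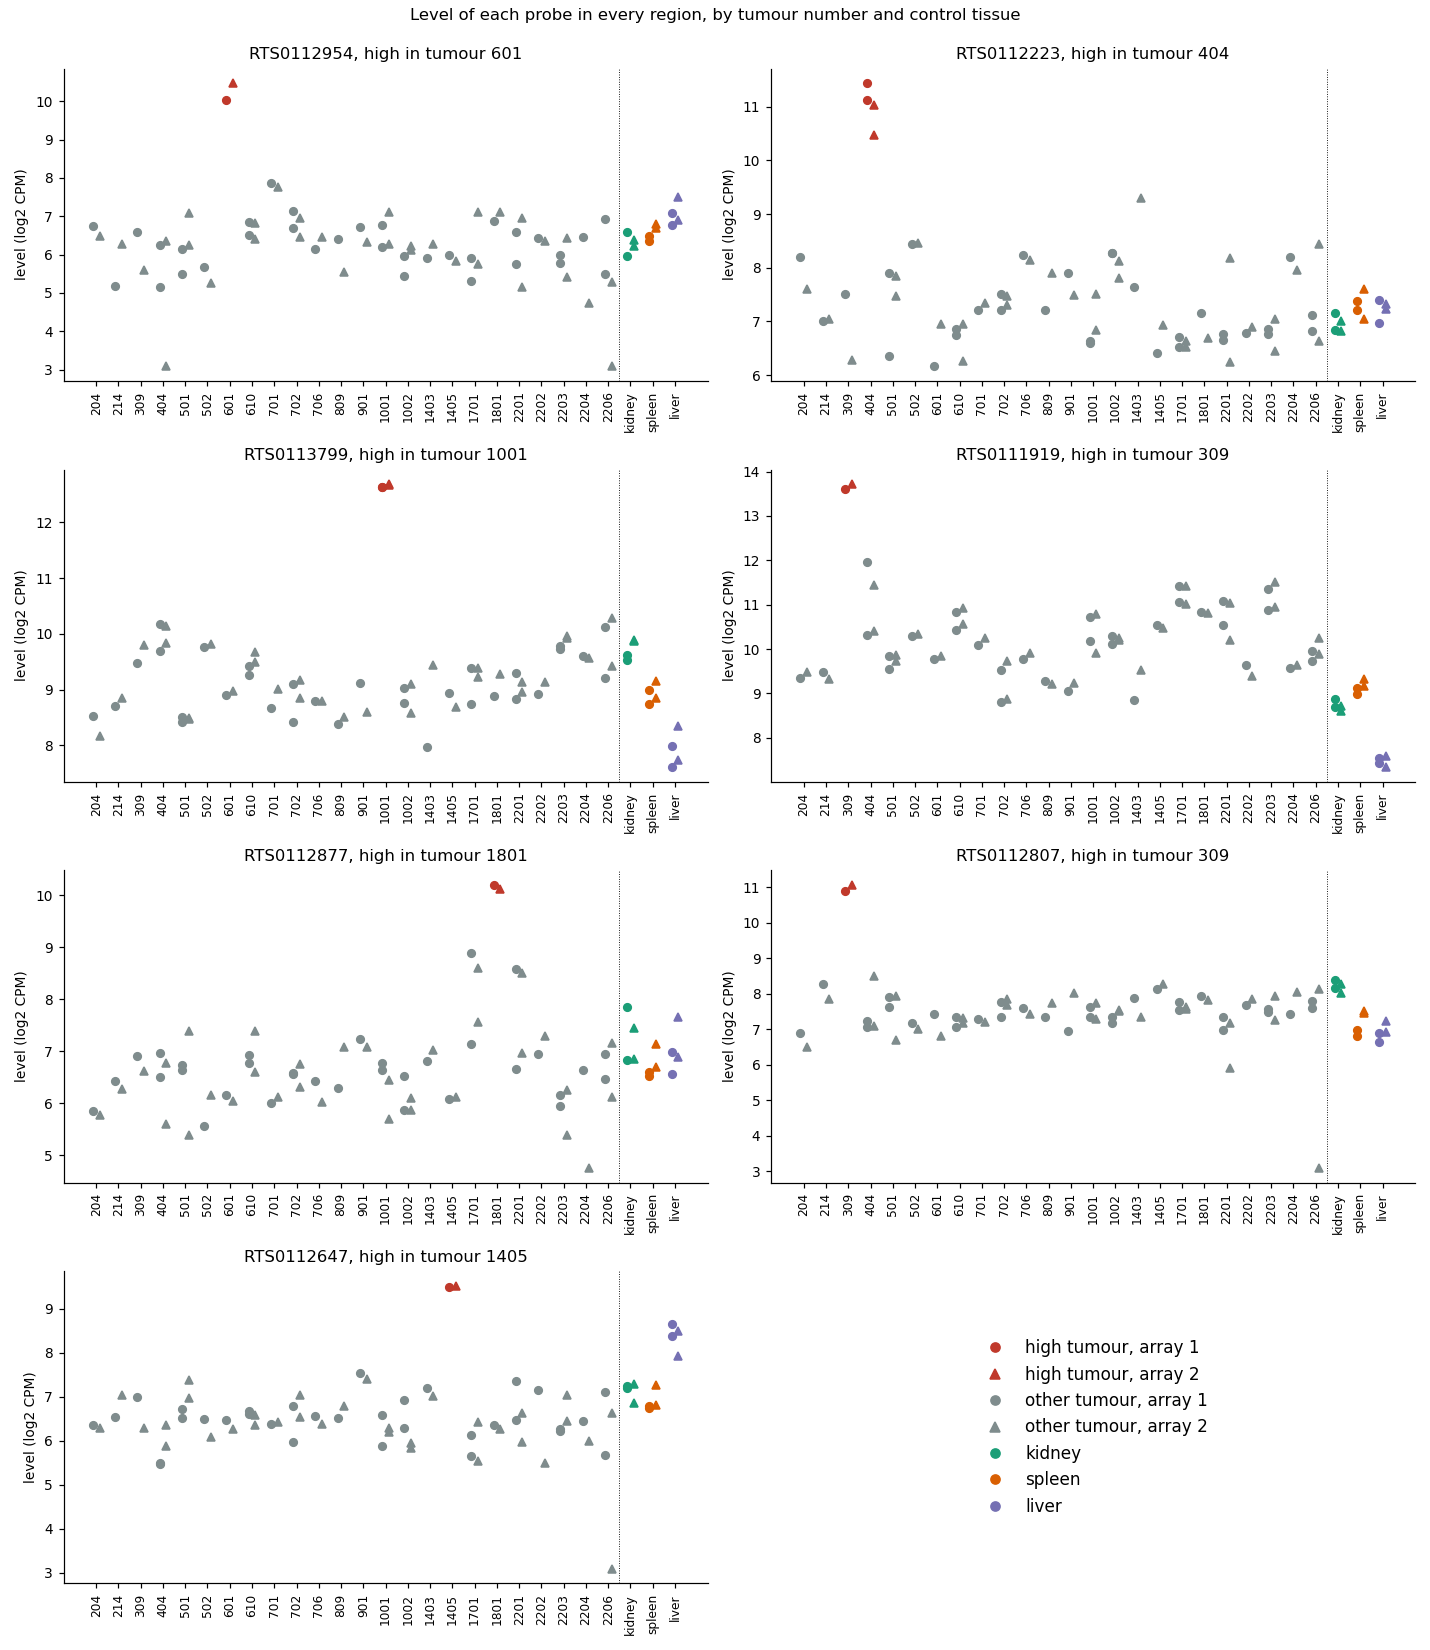
Level of each of the 7 probes (log2 CPM) in every region, by tumour number and control tissue on the horizontal axis. Circles are regions on array 1 and triangles regions on array 2, and the high tumour is red. In each panel all red points lie above all grey points, and the points near 3 are regions where the probe had a count of 0.

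That the level was high on both arrays was fixed by the rule, so the array levels of the high tumour are a description. The array levels of the high tumour differed by 0.029 log2 units for RTS0112647, 0.048 for RTS0113799, 0.09 in size for RTS0112877, 0.12 for RTS0111919 and 0.19 for RTS0112807. They differed by 0.46 for RTS0112954, array 2 being higher, and by 0.54 for RTS0112223, array 1 being higher. For comparison, the median difference between the arrays over tumours was 0.27 log2 units for the median probe. Within tumours the pooled SD of regions was 0.28 to 0.66 log2 units for the 7 probes, against a median of 0.46 over all probes. In the order of the 24 tumours, the step from the high tumour to the next exceeded that SD for all 7, as the rule requires. Lower in the order, only 2 steps did: from tumour 701 to tumour 1801 for RTS0112954, by 0.84, and from tumour 2201 to tumour 901 for RTS0112877, by 0.52. All other neighbouring tumours lay within the spread of regions.

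The 7 probes were also read in each other's high tumours, leaving out the pair that share tumour 309. Set against its median over the tumours other than its own, a probe differed there by between -0.89 and 1.07 log2 units over 35 such combinations. The upper end was RTS0111919 in tumour 404, with regions at 10.32 and 11.95 on array 1 and 10.41 and 11.44 on array 2. The TMM factors of that tumour were low, and their part in this was not tested. The lower end was RTS0112954 in the same tumour, where 1 region had a count of 0 and a level of 3.08. In the other regions of tumour 404 RTS0112954 was at 6.24, 5.14 and 6.37.

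Over all 2010 probes, 9 had a gap of at least 2 log2 units (0.448%), and the 7 listed were all that also had every region above (0.348%). Since these values chose the probes, they are a description. The others were RTS0112470 in tumour 1403, with a gap of 3.15, and RTS0113473 in tumour 404, with a gap of 2.06. RTS0112470 had a count of 4 in the array 1 region of tumour 1403 and of 955 in its array 2 region, at levels of 6.28 and 14.01, so a single region carried that gap. RTS0113473 had levels of 11.20 to 12.33 in the 4 regions of tumour 404, and its lowest lay 0.44 log2 units under the highest region of another tumour. Just outside the limit lay RTS0113370 in tumour 404 at 1.98, RTS0113561 in tumour 1701 and RTS0113639 in tumour 309 at 1.97 each. Just inside it lay RTS0112647 at 2.04 and RTS0112877 at 2.11. The median gap over all probes was 0.18 log2 units and the 95th percentile was 0.99.

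**Figure D2:**
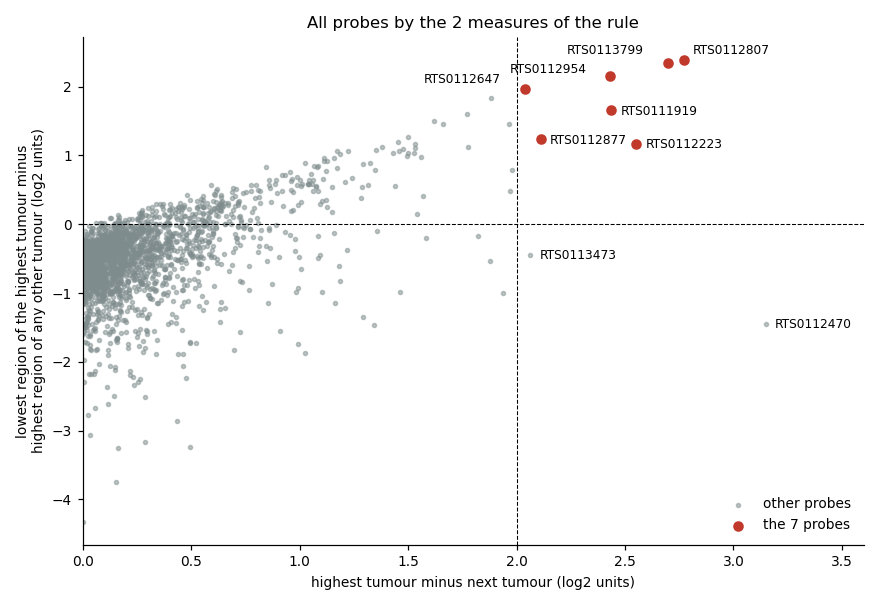
All 2010 probes by the measures of the rule, with the gap between the highest and the next tumour on the horizontal axis and the distance from the lowest region of the highest tumour to the highest region of any other on the vertical axis, both in log2 units. The dashed lines mark a gap of 2 and a distance of 0, and the 7 probes in red are the only ones in the upper right field.

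The levels in the tumours that the rule did not single out were set against each other across arrays, to see whether the rest of the variation of each probe recurred. Over the 23 tumours other than the high one, 4 of the 7 probes had array levels that correlated at an adjusted p under 0.05, against 50.5% of all 2010 probes tested in the same way, so the share among the 7 was near the background. With library size alone all 7 passed, as did 97.1% of all probes, and with counts thinned to 17711 per region 2 passed, against 22.4% of all probes. RTS0111919 recurred most closely, with Pearson r = 0.96 and Spearman rho = 0.96. Its permutation p was 1e-05 for each, the smallest that 100000 permutations can give, and the adjusted p 4.6e-05 and 5.1e-05. RTS0113799 followed with r = 0.74 and rho = 0.73 (permutation p 8e-05 and 0.00021, adjusted 0.000288 and 0.00072). RTS0112877 had r = 0.71 and rho = 0.73 (permutation p 0.00019 and 0.00017, adjusted 0.000648 and 0.000601). RTS0112223 had r = 0.63 and rho = 0.68 (permutation p 0.00114 and 0.00055, adjusted 0.00323 and 0.00165). With thinned counts RTS0112223 had r = 0.36 and RTS0112877 r = 0.025, with adjusted permutation p of 0.241 and 0.95.

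The remaining 3 probes did not pass. RTS0112954 had r = 0.45 with an adjusted permutation p of 0.0658, and rho = 0.49 with an adjusted p of 0.0387, so its call differed between the measures. RTS0112647 and RTS0112807 had r = 0.29 each, with adjusted permutation p of 0.249 and 0.26. With library size alone these 3 had r of 0.65, 0.72 and 0.73, with adjusted permutation p of 0.00139, 0.000206 and 0.000138. These 3 probes had median counts of 11 to 26.5 in the regions of the other tumours, against 88.5 and 184.5 for RTS0113799 and RTS0111919. RTS0112877 and RTS0112223, which passed, had median counts of 13.5 and 22. Without the 2 tumours farthest from the median on array 1, r was 0.95 for RTS0111919, 0.89 for RTS0113799, 0.63 for RTS0112877, 0.55 for RTS0112223 and 0.32 or less for the others. The arrays may carry pieces of the same specimen, so agreement between them does not stand for agreement between separate tumour samples.

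**Figure D3:**
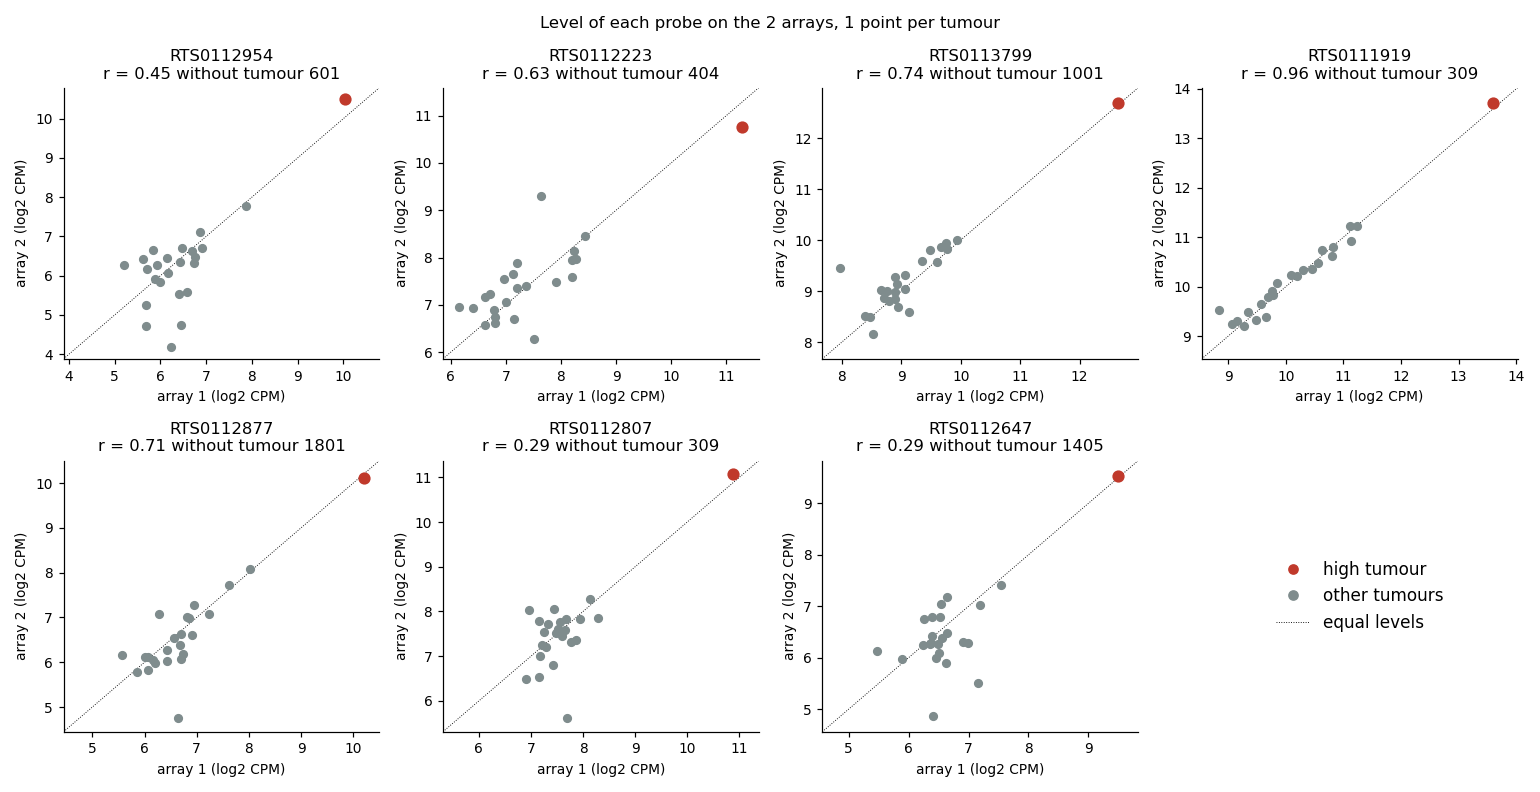
Level of each probe on array 1 (horizontal) and array 2 (vertical), in log2 CPM, with 1 point per tumour and the high tumour in red. The dotted line marks equal levels, and r is given over the 23 other tumours. The points of RTS0111919 follow the line closely (r = 0.96), while those of RTS0112807 and RTS0112647 scatter (r = 0.29 each).

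Levels did not differ detectably between the arrays for any of the 7 probes. Regions were summed within each tumour on each array, and tumours entered as blocks. Here edgeR's quasi-likelihood test called 0 of the 7, against a background of 7.66% of probes called higher and 1.09% called lower on array 2. DESeq2 also called 0, with no adjusted p for 3 of them, against 9.4% of all probes called higher and 0.597% lower. At an unadjusted p under 0.05 edgeR gave 1 of the 7, against 21.1% of all probes. It was RTS0113799, which was 0.12 ± 0.048 log2 units (SE) higher on array 2, in 17 of 24 tumours (edgeR adjusted p = 0.125). The other 6 probes differed by between -0.089 and 0.092 log2 units, with edgeR adjusted p from 0.575 to 0.964.

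The control tissues, which the rule did not use, were compared with the 24 tumours after summing the regions of each tumour and of each tissue. The 4 regions of a tissue make 1 sample, so the spread comes from the tumours alone and the tissue is assumed to vary as they do. No probe of the 7 was called against kidney, where 0.199% of all probes were higher in osteosarcoma and 4.93% lower. The same held against spleen, with 0% and 2.39%, and against liver, with 0.597% and 4.43%. At an unadjusted p under 0.05 edgeR gave 0 of the 7 against kidney, 0 against spleen and 2 against liver, where 13.2%, 10.8% and 24.8% of all probes were under it. DESeq2 called 0 of the 7 against kidney, where it called 3.58% of all probes higher and 4.83% lower, and 0 against spleen, with 1.59% and 2.44%. It called 2 against liver, with 6.57% and 5.57%. These tests hold the high tumour among the 24, and it widens the spread of its own probe.

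RTS0111919 was higher in all 24 tumours than in liver or kidney and in 23 of 24 than in spleen. Its level averaged 10.21 over the tumours, against 7.47 ± 0.12 in liver, 8.72 ± 0.12 in kidney and 9.15 ± 0.14 in spleen (SD, n = 4 regions each). The fitted difference from liver was 3.29 ± 1.59 log2 units (SE), with an edgeR adjusted p of 0.196. DESeq2 gave 3.40 with an adjusted p of 0.0343, where 6.57% of all probes were called higher. Over 34 alternatives the adjusted p ran from 0.0343 to 0.23, and DESeq2 alone passed. Against kidney and spleen its edgeR adjusted p was 0.539 and 0.62.

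RTS0112647 was lower in 23 of 24 tumours than in liver, the exception being tumour 1405. The fitted difference was -1.57 ± 0.71 log2 units (SE), with an edgeR adjusted p of 0.175. That value turned on tumour 1405. Without it the difference was -1.99 ± 0.27 and the edgeR adjusted p 2.99e-06. In that fit 0.398% of all probes were called higher and 4.38% lower. The rule singled out tumour 1405 by the level of this probe, so leaving it out narrows the spread in advance. That fit is therefore a description. DESeq2, which by its own rule for outlying counts replaced the summed count of 719 in tumour 1405 by 88, gave -1.93 with an adjusted p of 2.56e-09, at a background of 5.57%. Upper quartile scaling gave -2.25 with an edgeR adjusted p of 0.032, but it moved the median of all probes by -0.63 and called 1.49% of them higher and 16.5% lower. The adjusted p over 34 alternatives ran from 2.56e-09 to 0.279, and 3 passed: DESeq2, upper quartile scaling and the fit without tumour 1405. DESeq2 replaced the count of the high tumour in the same way for 6 of the 7 probes, RTS0111919 being the exception.

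For the other 5 probes, edgeR's fitted differences from the 3 tissues lay between -0.24 and 1.83 log2 units, and the edgeR adjusted p was 0.348 or higher throughout. These values include the high tumour, which moved several of them. Without it RTS0112807 differed from kidney by -0.74 in place of -0.24, and RTS0112877 from kidney by -0.58 in place of 0.0093. RTS0112954 differed from spleen by -0.14 in place of 0.44. These are a description, since the rule chose the tumour left out by its level. RTS0112807 was lower in 23 of 24 tumours than in kidney, where its level was 8.22 ± 0.16 (SD, n = 4 regions) against 6.93 ± 0.24 in liver. RTS0113799 was higher in all 24 tumours than in liver, at 7.92 ± 0.33, and lower in 19 of 24 than in kidney, at 9.73 ± 0.19. RTS0112954, RTS0112223 and RTS0112877 had control levels inside the range of the other tumours in each tissue. The high tumour itself lay above all 12 control regions for every one of the 7 probes, most narrowly for RTS0112647 over liver, by 0.85 log2 units, and most widely for RTS0111919 over liver, by 6.02.

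Other probes were raised in some of the 6 high tumours. In all, 95 probes (4.73% of 2010) lay at least 1 log2 unit above every other tumour in 1 tumour, and 88 of them were not among the 7. Tumour 404 held 14 of these 88, tumour 309 held 9, tumour 601 held 5, tumours 1405 and 1801 held 2 each, and tumour 1001 held 0. Of the tumours without one of the 7 probes, 701 and 2203 held 8 each. Over all 24 tumours the median was 3 when the 7 probes were counted in. The 0 of tumour 1001 depended on the setting, with 2 probes under library size alone, 1 with thinned counts and 4 on array 1 alone, and RTS0113069 missed the limit narrowly at 0.98. The number for tumour 404 changed with the scaling and the depth. It was 0 with library size alone, 6 after upper quartile scaling and 1 with counts thinned to 17711 per region.

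In tumour 309 the other probes with the largest gaps were RTS0113639, at 11.26 and 1.97 log2 units above the next tumour, and RTS0113009, at 11.01 and 1.56 above. Both tumour 309 regions were above all others for each. In tumour 404 they were RTS0113473 and RTS0113370, described above as lying at the limit of the rule. In tumour 601, RTS0112233 lay at 13.05, 1.88 log2 units above the next, and RTS0112947 at 8.31, 1.18 above. RTS0112947 reached 13.60 in liver, far above its level in tumour 601. In tumour 1001 the nearest were RTS0113069 with a gap of 0.98 and RTS0112469 with 0.95, each with a region under the highest region of another tumour. In tumour 1405 they were RTS0112829 with a gap of 1.46 and RTS0113364 with 1.13, and in tumour 1801 RTS0113391 with 1.66 and RTS0111893 with 1.32. RTS0111893 was higher in spleen, at 9.87, than in tumour 1801, at 9.28.

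**Figure D4:**
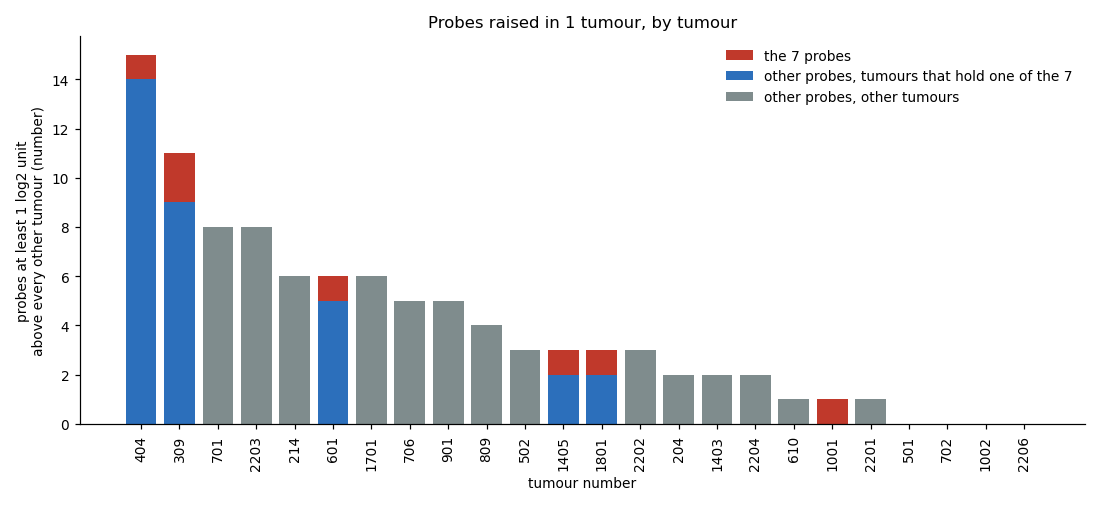
Number of probes at least 1 log2 unit above every other tumour, by the tumour they were raised in. Red marks the 7 probes, blue the other probes in the 6 tumours that hold one of the 7, and grey the other probes in the remaining tumours. Tumour 404 has 15 and tumour 309 has 11, tumour 1001 has only its member under TMM scaling, and 4 tumours have 0.

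The probes whose tumour levels were most like those of each member over the 24 tumours were found by Pearson's r, given as a description, since all levels come from the same libraries. For 4 members r with the most like probe stayed at 0.67 or above when the high tumour was left out. These probes were picked for the highest r among all probes, and the other 23 tumours enter both values. An r that stays high is therefore partly set by that choice. For RTS0112647 it was above the r of 0.29 between the probe's own levels on the 2 arrays over the same 23 tumours. RTS0111919 and RTS0113756 had r = 0.92 over 24 tumours and 0.89 without tumour 309, and RTS0111919 and RTS0113057 had 0.88 and 0.84. RTS0113799 and RTS0112284 had 0.79 and 0.71, RTS0112877 and RTS0112355 had 0.79 and 0.72, and RTS0112647 and RTS0112058 had 0.73 and 0.67. The second probe in the order was RTS0113545 for RTS0113799, at 0.67 and 0.56. It was RTS0113739 for RTS0112877, at 0.72 and 0.59, and RTS0112975 for RTS0112647, at 0.71 and 0.66.

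For the other 3 members r with the most like probe fell further without the high tumour. RTS0112954 was most like RTS0112947 and RTS0112233, at 0.61 and 0.60, and without tumour 601 these were 0.10 and -0.18. RTS0112807 was most like RTS0113531 and RTS0113520, at 0.73 and 0.72, and without tumour 309 these were 0.26 and 0.37. RTS0112223 was most like RTS0112798 and RTS0113299, at 0.72 and 0.66, with 0.55 and 0.54 without tumour 404. Of the 14 probes named for likeness, 13 had their own highest level in the same tumour as the member. The exception was RTS0113299, which was highest in tumour 2204. The 14 were chosen by r with the high tumour included, which favours probes that are high there. The 13 are therefore a description of that choice and not a separate result. Among all 2010 probes, from 66 (tumour 601) to 122 (tumour 404) were highest in each of the 6 high tumours.

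The gap of each probe was computed again under other settings. Tumour and probe pairs did not change: with TMM, upper quartile scaling, library size alone and thinned counts, each of the 7 probes had its highest level in the same tumour. The size of the gap did change. For RTS0112223 it fell from 2.55 with TMM to 0.43 with library size alone. It was wider on array 1 alone, where tumour 404 was at 11.29 and the next, tumour 502, at 8.44. On array 2 alone the gap was 1.45. For RTS0112647 it ran from 1.46 with upper quartile scaling to 2.13 with library size alone. For the other 5 probes it stayed between 2.03 and 2.87 under every setting run.

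**Figure D5:**
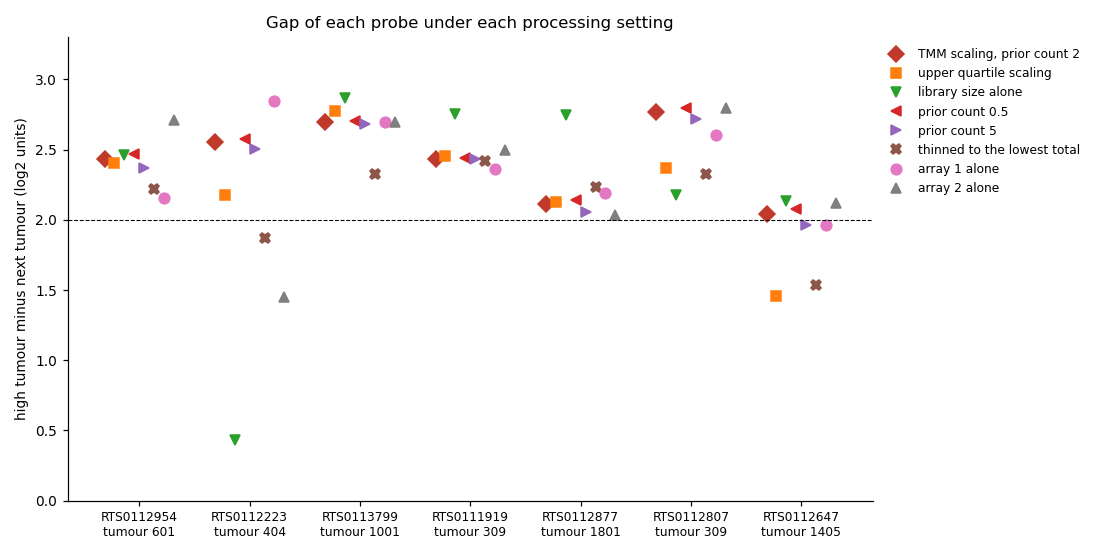
Gap between the high tumour and the next (log2 units, vertical axis) for each probe under TMM scaling and 7 other settings, marked by shape and colour. The dashed line marks the limit of 2. RTS0112223 falls to 0.43 with library size alone and RTS0112647 to 1.46 with upper quartile scaling, while the other 5 probes stay at 2.03 or above.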

How the data were processed

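Each deposited library lists a count for every probe seen; per the file headers it was produced with GeoMx NGS pipeline 2.3.4, and no normalization is recorded; the chemistry is the GeoMx Canine Cancer Atlas per the labels' protocols. The probe design, tag sequences and gene names are not given in the sources used here, and negative control probes were not used. A probe absent from a library was taken as a count of 0. Tumour numbers and arrays come from the sample titles. The 7 probes, their lists and the settings were chosen with earlier results of these data known.

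Levels are log2 CPM from edgeR 4.0.16 in R 4.3.3 (TMM, prior count 2), averaged per array and then per tumour. Levels across tumours chose the probes and were not tested. Tests were edgeR's quasi-likelihood test after filterByExpr, with Benjamini-Hochberg adjustment over all 2010 probes and a threshold of 0.05: array 2 against array 1 over 24 tumours with the tumour as a block, and the 24 tumours against each tissue. Matching tumour numbers in the sample titles are the ground for the block. Array levels were correlated over 23 tumours with two-sided permutation tests of 100000 resamples, adjusted over all probes in place of the 7 alone that had been planned. Tests were run on simulated data first. DESeq2 1.42.0, other scalings, prior counts, thinning, single arrays and left-out tumours or regions were the alternatives.

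Depth was 17711 to 1069118 counts per tumour region. Intervals cover counting error only. All 92 pairs of regions of 1 specimen differed by more than counting noise (chi-square test, highest p 0.000457). Over so many probes small differences suffice for this, so it does not show that regions are separate pieces. In tumour 404 the chi-square per degree of freedom was 75.0 and 18.8 within arrays. Across arrays it was 2.10, 1.45, 20.3 and 52.5. In tumour 1001 it was 14.0 and 21.6 within arrays and 1.89, 1.55, 13.7 and 22.3 across arrays. Tumour 610 showed no such split, with 2.27 for each pair within arrays and 1.85, 1.96, 2.53 and 3.09 across arrays. Whether regions on array 2 repeat regions on array 1 was not tested, so the arrays cannot be taken as independent samples of a tumour. In the tissue tests the p-values rest on the spread between these tumours, each of which may come from a single specimen. In the array test the block takes that spread out, and the p-values rest on how the array difference varies over tumours. The permutation p-values compare each correlation with those of shuffled tumours. Probes are named as the 7 members, the 2 most like each over the tumours, the 2 with the largest gaps in each high tumour, and those beside the limit of the rule.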

Additional observations from a re-analysis of the deposited data

Results flagged for a closer look

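RTS0112647 in the spleen regions was set apart by 1 region far from the others. Its level there was 7.27 log2 CPM in 1 array 2 region, from a count of 40, while the other 3 regions lay at 6.75, 6.80 and 6.81, so that the distance to the nearest made up 0.887 of the range. All 4 spleen regions lay under tumour 1405. This was 1 of 23 groups of 4 regions examined for the 7 probes, and chance sets apart about 1 in 20 such groups.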

How the results depend on the processing

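Gaps that moved by more than the SD of the high tumour's own regions, which was as low as 0.020 for RTS0112647 and 0.028 for RTS0113799, were these. RTS0112223 had 0.43 with library size alone, 1.87 with thinned counts and 1.45 on array 2 alone, and RTS0111919 had 2.75 with library size alone. RTS0113799 had 2.77 with upper quartile scaling, 2.87 with library size alone and 2.33 thinned. RTS0112877 had 2.75 with library size alone, 2.24 thinned, and 2.19 and 2.03 on arrays 1 and 2. RTS0112807 had 2.37 with upper quartile scaling, 2.18 with library size alone, 2.33 thinned and 2.60 on array 1. RTS0112647 had 1.46 with upper quartile scaling, 2.13 with library size alone, 2.08 and 1.97 with prior counts of 0.5 and 5, 1.54 thinned, and 1.96 and 2.12 on arrays 1 and 2. Leaving out 1 region of the high tumour kept all gaps between 2.03 and 2.87. The rule was met by 17 probes on array 1 alone and 15 on array 2 alone, where fewer regions have to lie above, and by 7, 9 and 6 probes after upper quartile scaling, library size scaling and thinning. Of these 6, 6 and 5 were among the 7 listed: RTS0112647 dropped out under the first, RTS0112223 under the second and both under the third. Leaving out the region of tumour 2206 with the lowest total, an alternative chosen after seeing the data, gave gaps of 2.04 to 2.77.

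Other probes at least 1 log2 unit above every other tumour numbered 6, 0 and 1 in tumour 404 with upper quartile scaling, library size alone and thinned counts. Tumour 601 had 3 with upper quartile scaling, 3 thinned and 8 on array 2, and tumour 1001 had 2 with library size alone, 1 thinned and 4 on array 1. Tumour 1405 had 1 with upper quartile scaling, thinned or on array 2, and tumour 1801 had 4 with library size alone and 1 after upper quartile scaling. The number of the 7 called against liver was 1 with upper quartile scaling, 2 with DESeq2 and 0 to 1 over left-out tumours and regions. The 1 over left-out samples was RTS0112647 without its own high tumour. The number whose arrays correlated was 7 with library size alone, where 97.1% of all probes did, and 2 thinned, where 22.4% did. The causes were not tested.

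Uncalled differences crossed 0 under some settings. Between arrays, library size alone gave -0.0046 for RTS0112954, -0.047 for RTS0111919 and -0.024 for RTS0112807, upper quartile scaling gave -0.027 for RTS0111919, and DESeq2 gave 0.028 for RTS0112223. Without the tumour block RTS0112647 gave 0.081, and 0 of the 7 probes were called, with 1 probe of 2008 called in all. Left-out tumours gave -0.058 to 0.050 for RTS0112223 and -0.104 to 0.018 for RTS0112647. Against kidney, RTS0113799 gave 0.0092 on array 1 and -0.57 to 0.016 over left-out samples. RTS0112877 gave -0.41 with upper quartile scaling, -0.84 with library size alone, -0.50 with DESeq2 and -0.58 to 0.20 over left-out samples. Against spleen, library size alone gave -0.42 for RTS0112954, -0.51 for RTS0112223, -0.28 for RTS0113799, -0.50 for RTS0112877, -0.063 for RTS0112807 and -0.89 for RTS0112647. DESeq2 gave -0.083 for RTS0112954, and left-out samples gave -0.14 to 0.50. RTS0112647 gave -0.29 with upper quartile scaling, -0.32 with DESeq2, -0.11 on array 2 and -0.36 to 0.16 over left-out samples. Against liver, RTS0112223 gave -0.21 with library size alone and RTS0112954 gave -0.69 to 0.0075 over left-out samples. RTS0112877 gave -0.49 with upper quartile scaling, -0.66 with library size alone, -0.26 with DESeq2, -0.12 on array 2 and -0.34 to 0.43 over left-out samples. The array correlation of RTS0112807 was -0.071 with thinned counts. The median of all probes moved by between -0.31 and -0.63 under upper quartile scaling and by between -0.77 and -1 under library size scaling in the tissue comparisons, so the differences there are relative to those shifts.

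Scaling, depth and the lone tissue samples all limit these values. The gap of RTS0112223 and the number of probes raised with it in tumour 404 changed with the scaling and with thinned counts. That gap was also under 2 on array 2 alone. The median count in the other tumours was 11 to 26.5 per region for 5 of the 7 probes. Each tissue entered as 1 sample, the high tumour widened the spread of its own probe, and 14 of the 24 tumours had 1 region per array. Without gene names neither tissue identity nor the identity of a probe was checked.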
